A study of Mus musculus with 4 samples.

Results

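The 10 heat shock chaperones described here are Hspa1a, Hspa1b, Hsph1, Dnajb1, Hsp90aa1, Hspa8, Hspd1, Hspe1, Hspb1 and Bag3, taken by gene symbol as 10 of the 32285 genes counted in each library. Mouse hearts were taken apart into cells and profiled by droplet single-cell RNA sequencing of polyadenylated RNA with the Chromium 3' v3 kit, which tags each captured RNA near its 3' end with a unique molecular identifier (UMI). There were 4 libraries, 1 for each group. The first library is labelled control and the second sham, with no further word on their handling. The CLP library came from the cecal ligation and puncture operation, a bowel injury used as a mouse model of sepsis, and its title calls it sepsis. The last library, called CLP plus stimulation here, is titled sepsis with low-level stimulation of the tragus, a part of the outer ear supplied by a branch of the vagus nerve, while its treatment field names the stimulation alone. The sources used here do not state the strain, age and sex of the mice, the number of hearts behind a library, the time after the operation or the way the cells were freed. The series title asks about stimulation, macrophages and the septic heart, and the CLP libraries were therefore set against sham and against each other. With 1 library per group no difference could be tested, no p-value is given, and every interval below covers counting error only.

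Heat shock chaperones keep proteins folded and take up those that unfold. Most of them are transcribed at a base rate and are raised by heat shock factor 1, which binds repeats of the letters GAA and their complement TTC, called heat shock elements, when unfolded protein accumulates. HSP70 proteins bind short stretches of unfolded chain, J domain proteins such as Dnajb1 bring clients to them, nucleotide exchange factors such as Hsph1 and Bag3 release the clients, and HSP90 takes over clients that are close to their folded state. In the heart the small heat shock protein Hspb1 and Bag3 are best known for the upkeep of the contractile and cytoskeletal proteins of muscle cells.

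The start regions of the members are shown because the members share a regulator by textbook knowledge. Sequences are from RefSeq on GRCm38.p6, which held an entry for 8 of the 10 members, and were searched on both strands for GAANNTTC and TTCNNGAA, the forms of 2 adjoining units, each of which reads the same on both strands. Capitals mark the matches. The 250 bases before the start of the HSP70 genes Hspa1a (chr17:34972157-34972406, minus strand) and Hspa1b (chr17:34959239-34959488, minus strand) are as follows.
Hspa1a: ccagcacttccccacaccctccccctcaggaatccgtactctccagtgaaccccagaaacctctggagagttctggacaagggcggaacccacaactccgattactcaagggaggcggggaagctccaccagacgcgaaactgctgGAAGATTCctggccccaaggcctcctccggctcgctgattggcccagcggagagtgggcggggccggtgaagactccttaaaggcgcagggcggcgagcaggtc
Hspa1b: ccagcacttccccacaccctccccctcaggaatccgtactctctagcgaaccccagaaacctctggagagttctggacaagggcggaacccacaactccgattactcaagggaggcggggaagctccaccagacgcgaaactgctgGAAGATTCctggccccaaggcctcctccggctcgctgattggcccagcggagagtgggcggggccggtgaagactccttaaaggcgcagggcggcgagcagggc
They were 98.8% identical, with 3 differences in 250 bases, written with the Hspa1a base first and counted from 1 at the 5′ end of the window: C44T, T47C and T249G. Both held GAAGATTC 104 bases before the start. The chaperonin genes Hspd1 and Hspe1 lie head to head and share 1 stretch of 4 units, read here on the strand of each gene (chr1:55088053-55088082), and Hspb1 held 2 matches (chr5:135887791-135887820 and chr5:135887811-135887840, plus strand). Hsph1 held a match before its RefSeq start (chr5:149636351-149636380, minus strand). The gene bounds given below are from GENCODE, and the Hsph1 match and the shared stretch fall inside those of Hsph1 and Hspd1.
Hspd1: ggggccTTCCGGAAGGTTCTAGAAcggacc
Hspe1: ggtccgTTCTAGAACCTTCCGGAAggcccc
Hspb1 farther: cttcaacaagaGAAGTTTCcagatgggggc
Hspb1 nearer: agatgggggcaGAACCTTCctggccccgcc
Hsph1: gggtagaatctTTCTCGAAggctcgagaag
Windows of 300 bases (250 before and 50 after a start) were searched, and a gene was counted if any of its windows held a match. A match to the 2-unit forms stood in 7 of the 8 members with an entry and in 17.0% of all 27025 genes (15.1% of the 32851 windows). The forms of 3 adjoining units were GAANNTTCNNGAA and TTCNNGAANNTTC, which contain the shorter forms. They stood in Hspd1, Hspe1 and Hsph1, and in 0.662% of all genes (0.603% of windows). Hspd1 and Hspe1 share theirs, and that of Hsph1 lay 36 bases after its RefSeq start. The windows of Hspa1a, Hspa1b, Hspb1 and Bag3 held only the shorter form and that of Dnajb1 held neither. A match is a description of the letters and not a measured binding site.

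On GRCm38 the HSP70 genes lie at 17:34969190-34972156 (Hspa1a) and 17:34956436-34959238 (Hspa1b), both on the minus strand, 9951 bases apart, with 1 exon each and no intron. Hsph1 lies at 5:149614287-149636376 on the minus strand, Dnajb1 at 8:83608193-83612653 on the plus strand and Hsp90aa1 at 12:110690605-110702728 on the minus strand. Hspa8 lies at 9:40800984-40810087, Hspb1 at 5:135887919-135889563 and Bag3 at 7:128523616-128546981, all on the plus strand. Hspd1 (1:55077835-55088243, minus strand) and Hspe1 (1:55088132-55091307, plus strand) overlap at their starts. Of 2918 stretches of 50 bases in the Hspa1a transcript 1716 (58.8%) also stand in the Hspa1b transcript, but 0 of the 351 stretches in its last 400 bases do. Reads from the shared part can be split or lost by the counting, so the separate levels of Hspa1a and Hspa1b are uncertain and are read as a pair.

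The libraries held 54611436 to 59465046 UMIs, and 37617 cells were kept (13568, 8281, 7746 and 8022). Values in fours are given throughout in the order control, sham, CLP, then CLP plus stimulation. Pairs of libraries shared 19 to 60 barcodes. Median depth was lower in control (2992 UMIs per cell) than in the others (5003.5 to 5522), and the median mitochondrial share was 2.29% to 3.64%. Cells were put in a class by their markers, with the leading class scoring at least 1.5 times the next, which placed 32373 cells (86.1%, and 76.0% in CLP plus stimulation). Just inside that limit (1.5 to 2 times) stood 2308 cells and just outside (1.25 to 1.5 times) 1208. The classes come from marker RNA alone and are therefore called macrophage-like and so on. Cells of 1 class fell into different clusters in different libraries. Macrophage-like cells were mostly in clusters 2 and 5 in control and sham, in cluster 6 in CLP (80.1%) and in cluster 4 in CLP plus stimulation (71.0%), where a further 482 of 3136 cells stood in cluster 8, an unnamed cluster of shallow cells (median 1005.5 UMIs) that came from CLP plus stimulation in 1456 of its 1576 cells. Endothelial-like, fibroblast-like and neutrophil-like cells likewise stood in different clusters in control or sham and in the CLP libraries, while pericyte-like cells stayed in cluster 22. Cardiomyocyte-like cells, the contractile cells of the heart, were few (222, 213, 245 and 65).

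In the CLP library the stress-inducible HSP70 pair was higher than in sham in all 7 classes that could be compared, and in macrophage-like cells all 10 chaperones were higher. In CLP plus stimulation all 10 were lower than in CLP in macrophage-like cells. A gene was counted as higher or lower at 2-fold or more. In macrophage-like cells 7 of 10 members were at least 2-fold higher in CLP than in sham, against 5.27% of the 12799 genes measured there, and 0 were at least 2-fold lower, against 17.5%. The members' median log2 ratio was 1.26, where the median of all genes was -0.24. In endothelial-like cells 4 of 10 were that much higher, against 4.92% of genes (median 0.95 against -0.12), in fibroblast-like cells 2 of 10, against 3.67% (0.37 against -0.09), and in neutrophil-like cells 3 of 10, against 12.8% (0.65 against -0.10). In cardiomyocyte-like cells 4 of 10 were higher (6.56% of genes), in smooth muscle-like cells 2 of 10 (4.71%) and in pericyte-like cells 0 of 10 (5.74%). The cardiomyocyte-like count includes Hsph1 and Dnajb1, which rested on few counts in cells with a median of 741 UMIs in sham and 816 in CLP. No member was at least 2-fold lower in CLP than in sham in these 7 classes, where the share of genes that were was 6.16% in endothelial-like, 7.56% in fibroblast-like, 14.6% in neutrophil-like, 9.06% in cardiomyocyte-like, 4.13% in smooth muscle-like and 5.39% in pericyte-like cells. The map of log2 ratios places the members on a common scale.

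**Figure D1:**
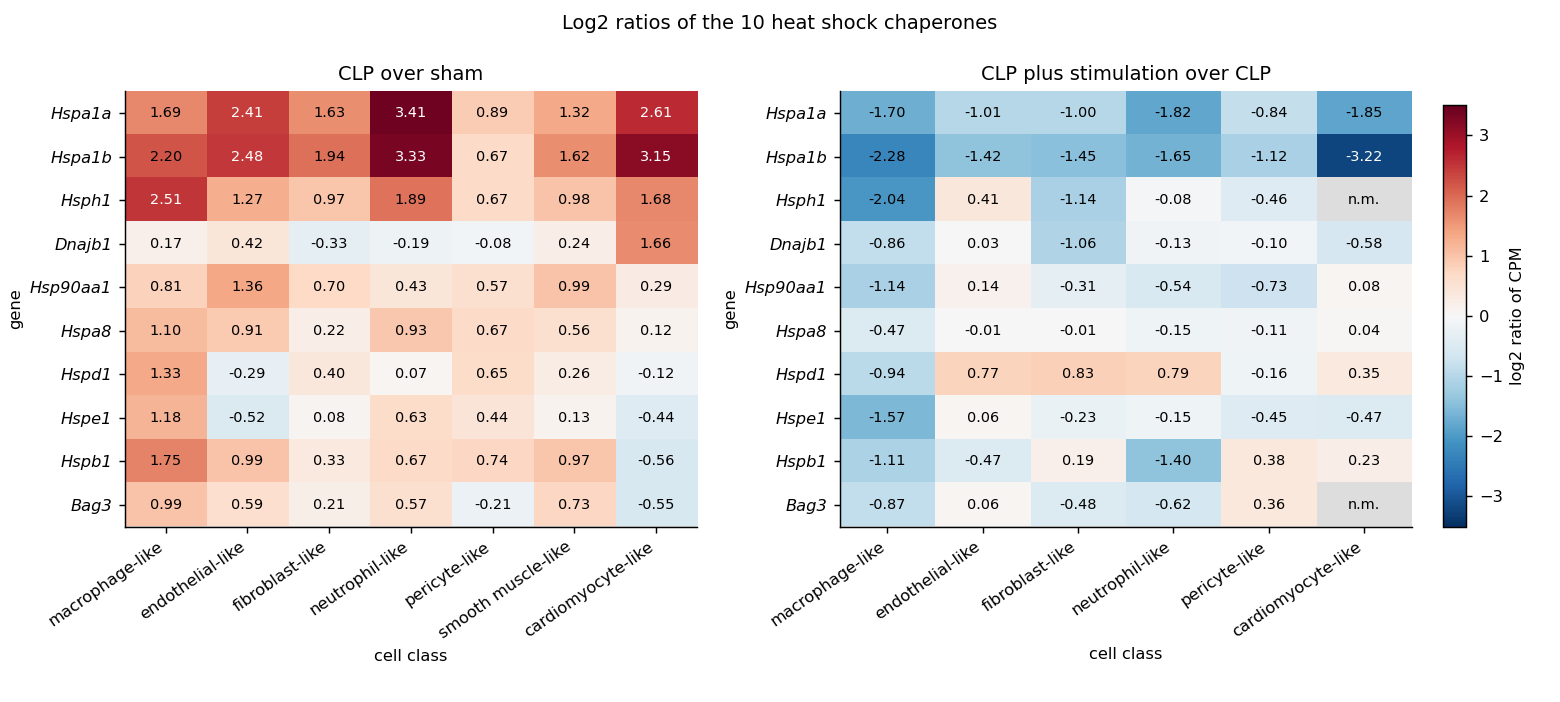
Log2 ratios of CPM for each chaperone (rows) and cell class (columns), CLP over sham on the left and CLP plus stimulation over CLP on the right, with red for higher, blue for lower and n.m. for fewer than 20 counts. Hspa1a and Hspa1b are red in all 7 columns on the left and blue in all 6 on the right, while Dnajb1 lies between -0.33 and 0.42 on the left except in cardiomyocyte-like cells at 1.66.

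CLP plus stimulation against CLP shares the CLP library with the comparison above, so a high CLP value enters both and the ratios are given side by side. In macrophage-like cells 6 of 10 members were at least 2-fold lower in CLP plus stimulation, against 8.78% of genes, and the member median was -1.13 against 0.03 for all genes. In endothelial-like cells 2 of 10 were that much lower (19.5% of genes), in fibroblast-like cells 3 of 10 (16.9%), in neutrophil-like cells 3 of 10 (4.31%), in pericyte-like cells 1 of 10 (12.2%) and in cardiomyocyte-like cells 2 of the 8 measured (7.11%). The endothelial-like and pericyte-like counts were near their backgrounds. No member was at least 2-fold higher in these 6 classes, where 8.29%, 9.39%, 4.93%, 15.7%, 9.35% and 11.2% of genes were. Set against sham, CLP plus stimulation had 0 of 10 members at least 2-fold higher in macrophage-like cells (8.02% of genes) and 0 lower (21.7%). It had 4 of 10 higher in endothelial-like cells (9.45%), 5 of 9 in B cell-like cells (10.1%), 3 of 10 in T or NK cell-like cells (13.4%) and 3 of 10 in neutrophil-like cells (25.7%), the last near the background. In fibroblast-like cells 1 of 10 was higher (7.33%) and 1 lower (24.9%). Sham against control had 0 of 10 members past 2-fold in macrophage-like cells (1.68% of genes higher and 1.44% lower), endothelial-like cells (1.12% and 1.08%) and fibroblast-like cells (0.894% and 1.16%), and 0 of 7 in neutrophil-like cells (3.57% and 6.65%). Most members were lower in sham than in control even so, 9 of 10 in macrophage-like cells with a median of -0.32 against 0.03. In endothelial-like cells the ratio was -0.68 for Hsp90aa1, while Hspe1 was higher at 0.21. The CLP over sham ratios carry this difference. By the endothelial-like levels given below, Hsph1 and Hsp90aa1 were less than 2-fold higher in CLP than in control.

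Hspa1a and Hspa1b encode nearly the same stress-inducible cytosolic HSP70. Levels are the UMIs of a gene per 1000000 UMIs of the class (CPM). Hspa1a stood at 1987, 1592, 5152 and 1587 CPM in macrophage-like cells of the 4 libraries, and Hspa1b at 758, 586, 2697 and 554 CPM. CLP was highest for both and the other 3 libraries lay close together. The CLP over sham log2 ratio was 1.69 (95% interval 1.67 to 1.71) for Hspa1a, a 3.24-fold difference, and 2.20 (2.17 to 2.23) for Hspa1b. CLP plus stimulation over CLP gave -1.70 (-1.72 to -1.68) and -2.28 (-2.31 to -2.25), and CLP plus stimulation over sham gave 0.00 (-0.03 to 0.02) and -0.08 (-0.12 to -0.04).

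Endothelial-like cells line the vessels. Their Hspa1a level was 551, 360.2, 1910.5 and 948 and their Hspa1b level 262, 158, 881 and 329, so CLP was again highest, but CLP plus stimulation stood between sham and CLP. The CLP over sham ratio was 2.41 (2.35 to 2.46) for Hspa1a and 2.48 (2.40 to 2.56) for Hspa1b. CLP plus stimulation over CLP was -1.01 and -1.42, the first of which was -0.77 with cells thinned to 1 depth, and over sham 1.40 and 1.06. Fibroblast-like cells, which make the matrix, were lower throughout, with 262, 261, 806 and 403 for Hspa1a and 161, 138, 528 and 192 for Hspa1b. The order of the libraries was the same as in endothelial-like cells apart from control and sham, which nearly coincided for Hspa1a. The CLP over sham ratio was 1.63 and 1.94, and the CLP plus stimulation over CLP ratio -0.999, just short of 2-fold, and -1.45.

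Pericyte-like cells, which wrap capillaries, had the highest Hspa1a level of any class in control, sham and CLP plus stimulation. Their levels were 2577, 2109.8, 3914 and 2178 for Hspa1a and 1368, 1371, 2187 and 1003 for Hspa1b. These cells also showed the smallest CLP over sham ratios of the pair, 0.89 (0.74 to 1.04) and 0.67 (0.48 to 0.87). Smooth muscle-like cells had 908, 726 and 1818 CPM of Hspa1a and 447, 284 and 872 of Hspa1b in control, sham and CLP. Only 44 such cells were found in CLP plus stimulation, under the 50 required for a level. The CLP over sham ratio there was 1.32 (1.20 to 1.45) and 1.62 (1.43 to 1.81).

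Cardiomyocyte-like cells had 150.0, 137, 849 and 229.9 CPM of Hspa1a, from 49, 31, 219 and 17 counts. Hspa1b stood at 82.6, 62.0, 566 and 54.1 from 27, 14, 146 and 4 counts, so the last value rests on very few molecules. The CLP library was the high one, with a CLP over sham ratio of 2.61 (2.08 to 3.22) and 3.15 (2.40 to 4.10). Their complement C1q RNA, a macrophage product, was at 493, 890.1, 535 and 487 CPM. Hspa1a per C1q UMI was 0.304, 0.154, 1.59 and 0.472 there, where macrophage-like cells of the same library had 0.131, 0.0921, 0.496 and 0.214 and all cells together 0.2003, 0.124, 0.854 and 0.288. The cardiomyocyte-like values were above both of these in every library and nearer to those of all cells. The part of free RNA in the cardiomyocyte-like values was not tested.

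Neutrophils are short-lived phagocytes of the blood with little RNA. Neutrophil-like cells had 46.0, 58.0, 624 and 176 CPM of Hspa1a from 9, 31, 1064 and 501 counts. Hspa1a per C1q UMI was 0.0978 and 0.122 in their control and sham cells, near or below the ratio of all cells together given above. The part of free RNA in those 2 levels was not tested, and ratios against them rest on few counts. In CLP Hspa1a per C1q UMI was 3.66 and in CLP plus stimulation 1.04, both above the ratio of all cells of the same library. Of the Hspa1a UMIs of the 231 CLP cells, 85.4% came from the 24 cells with the most, up to 162 in 1 cell. The CLP over sham ratio was 3.41 (2.91 to 3.99). Median depth also differed, at 1431, 2604, 6036 and 4820.5 UMIs per cell. The clusters differed too, with 97.4% of the sham cells in cluster 26 and 89.6% of the CLP cells in cluster 16. The part of depth and of cluster in the result was not tested. With classes from named clusters, neutrophil-like Hspa1a stood at 133, 126, 782 and 136. The sham level was thus higher than the 58.0 above and the CLP plus stimulation level lower than the 176. The CLP plus stimulation over sham ratio of 1.58 became 0.11, and the cause of this change was not tested.

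Lymphocytes were too few in CLP for a level (24 B cell-like and 28 T or NK cell-like cells). In B cell-like cells Hspa1a stood at 581, 182 and 1023 in control, sham and CLP plus stimulation, and in T or NK cell-like cells at 195, 179 and 804. CLP plus stimulation was highest in both classes. Its ratio over sham was 2.48 (2.18 to 2.81) in B cell-like and 2.17 (1.93 to 2.41) in T or NK cell-like cells, and that of Hspa1b 1.95 and 2.61. Sham B cell-like cells were below control for Hspa1a, with a ratio of -1.67 (-2.03 to -1.33), but Hspa1b stood at 198, 175 and 679.8, a sham over control ratio of -0.18 (-0.62 to 0.27), so the pair did not differ alike between control and sham. Hspa1a UMIs per Hspa1b UMI were 2.94 and 1.04 in those cells. The plot of HSP70 levels shows all classes.

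**Figure D2:**
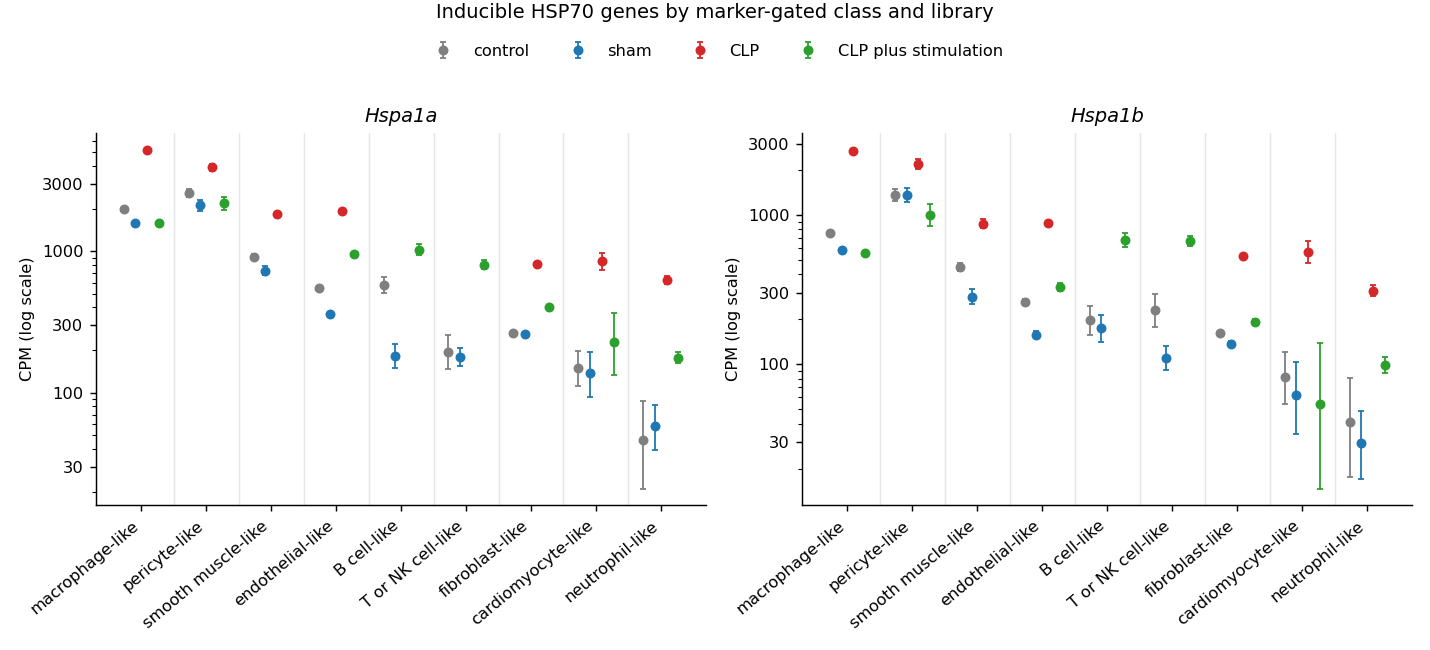
Hspa1a and Hspa1b in CPM (log scale) by cell class and library, with points for the summed counts of a class and bars for exact 95% Poisson intervals. CLP is the highest point wherever it is given, and pericyte-like and macrophage-like cells are the top classes for Hspa1a in all 4 libraries.

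The macrophage-like difference was also present with depth held equal. Each cell was thinned to 1500 UMIs, which left 3192, 2812, 1654 and 2682 macrophage-like cells and set aside 890, 340, 99 and 454 shallower ones. Of these cells 71.9%, 63.4%, 84.3% and 60.4% had an Hspa1a UMI, where the share without thinning was 78.8%, 79.9%, 93.3% and 77.0%. The share with at least 10 Hspa1a UMIs was 7.89%, 5.65%, 37.2% and 6.38%. The median cell held 2, 1, 6 and 1 Hspa1a UMIs and the cell at the 90th percentile 8, 7, 27 and 7, so cells in the middle and at the top of the range were both higher in CLP. The tenth of cells with the most held 41.1%, 48.1%, 37.9% and 51.0% of the Hspa1a UMIs, the lowest share in CLP. In endothelial-like cells the thinned share with an Hspa1a UMI was 32.1%, 20.3%, 63.2% and 51.2% (36.4%, 35.1%, 74.1% and 59.5% without thinning, with 1061, 266, 333 and 160 shallow cells set aside). In fibroblast-like cells it was 27.3%, 25.3%, 50.4% and 39.2% (49.2%, 58.1%, 84.6% and 73.8% without thinning, 322, 53, 45 and 127 set aside). In neutrophil-like cells it was 7.14%, 8.93%, 23.0% and 16.7% (7.20%, 13.5%, 49.8% and 33.5% without thinning, 69, 24, 22 and 113 set aside). The part of free RNA in the first 2 of these shares was not tested.

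Within macrophage-like cells several chaperones went with Hspa1a. In CLP, thinned cells with 0, 1 to 9 and at least 10 Hspa1a UMIs (259, 779 and 616 cells) held on average 0.42, 2.21 and 10.92 UMIs of Hspa1b. They held 3.08, 4.55 and 8.30 UMIs of Hspa8, 1.67, 3.03 and 6.60 of Hsp90aa1 and 0.20, 0.40 and 1.04 of Dnajb1. Hspb1 (0.181, 0.273 and 0.776) and Bag3 (0.0927, 0.119 and 0.245) had the same order, while Hspd1 (0.290, 0.266 and 0.443) was higher only in the cells rich in Hspa1a. In sham (1030, 1623 and 159 cells) Hspa1b (0.33, 0.95 and 4.73 UMIs) and Hspa8 (2.08, 2.59 and 4.16) again stepped up. So did Hsp90aa1 (1.58, 2.26 and 4.09) and, at low levels, Hsph1 (0.0223, 0.0314 and 0.0692) and Hspe1 (0.263, 0.275 and 0.352). Hspb1 (0.107, 0.103 and 0.101), Bag3 (0.0680, 0.0715 and 0.0692) and Hspd1 (0.140, 0.132 and 0.151) stayed nearly level in sham. Dnajb1 (0.404, 0.547 and 0.553) was lower only in the cells without Hspa1a. Fos, an immediate early gene, went with Hspa1a as well, with 2.22, 3.99 and 7.83 UMIs in CLP and 5.65, 7.74 and 11.01 in sham. These are cells of single libraries sorted by a member's own UMIs, and the averages are given as a description.

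**Figure D3:**
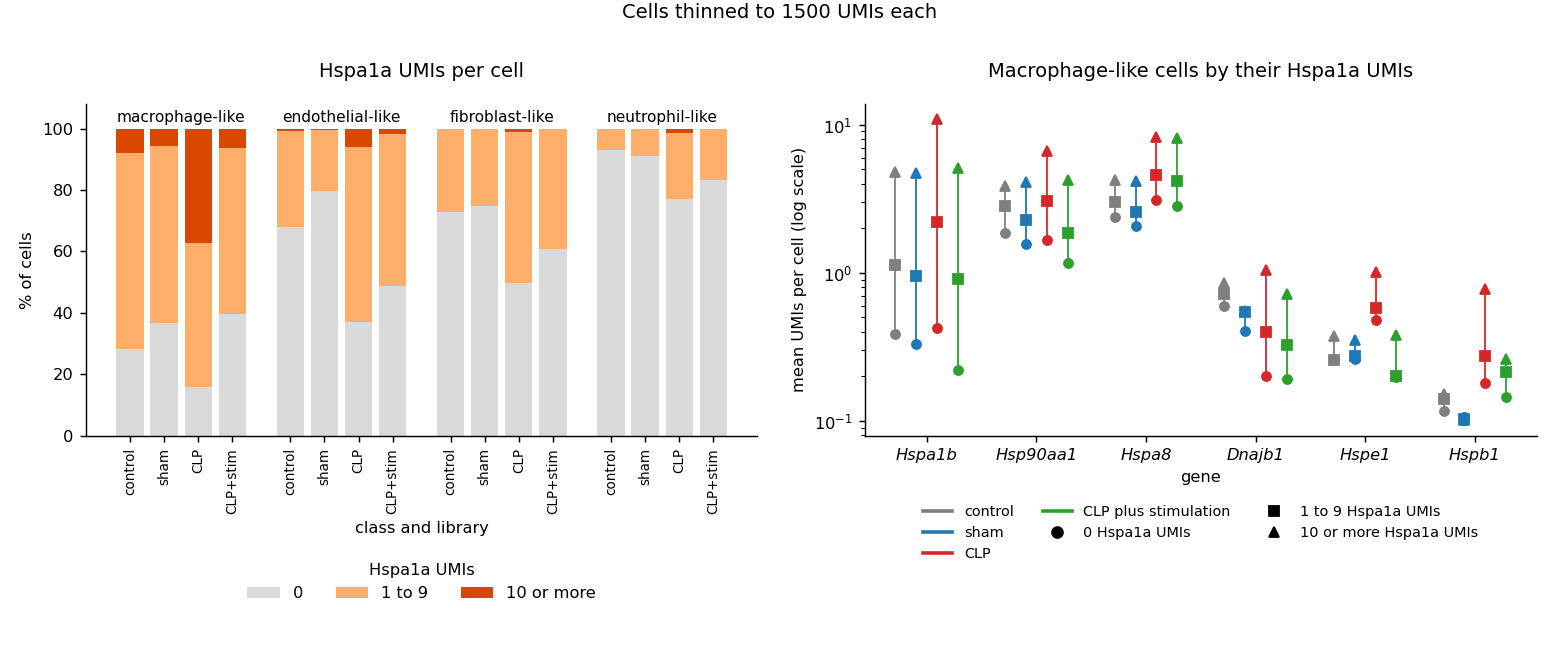
Cells thinned to 1500 UMIs: on the left the share of cells (%) with 0, 1 to 9 and at least 10 Hspa1a UMIs by class and library, on the right the mean UMIs per cell (log scale) of 6 other members in macrophage-like cells grouped by their Hspa1a UMIs. The CLP macrophage-like bar has 37.2% of cells with at least 10 Hspa1a UMIs, and on the right the triangles, which stand for those cells, lie above the circles for Hspa1b, Hsp90aa1 and Hspa8 in all 4 libraries.

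Immediate early genes, which are known to be induced together with heat shock genes while tissue is taken apart, were measured beside the members. In macrophage-like cells 3 of 16 were higher and 13 lower in CLP than in sham, with 0 at least 2-fold higher and 4 at least 2-fold lower (Egr1, Fosb, Maff and Ppp1r15a), against 5.27% and 17.5% of all genes. Their median ratio was -0.67, against -0.24 for all genes. Fos stood at 4408, 4649, 2782 and 3658 CPM and Egr1 was at 2176 and 589 in sham and CLP. In endothelial-like cells 10 of 16 were higher (median 0.11 against -0.12), and in fibroblast-like cells 1 of 16 (median -0.45 against -0.09). In CLP plus stimulation over CLP 13 of 16 were higher in macrophage-like cells (median 0.17 against 0.03) and 16 of 16 in endothelial-like cells (median 0.27 against -0.14). Their part in the members' values was not tested. Markers of neutrophils summed to 134, 190.2, 1386 and 1199 CPM in macrophage-like cells, with medians over cells of 0, 0, 4.5 and 5.0 per 10000, and macrophage markers to 17720, 20004, 12862 and 9778. The part of this shift in the result was not tested.

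The pair itself was not constant. Hspa1a UMIs per Hspa1b UMI were 2.62, 2.72, 1.91 and 2.86 in macrophage-like cells, with an interval of 1.89 to 1.93 in CLP. The CLP value was the lowest of the 4, and it was the lowest in fibroblast-like cells too (1.62, 1.89, 1.53 and 2.09). In endothelial-like cells the ratio was 2.10, 2.28, 2.17 and 2.88, with CLP among the others. Because the transcripts share most of their length, these ratios depend on how reads in the shared part were counted. Within CLP the macrophage-like cells of cluster 6 had 6033 CPM of Hspa1a and the 140 cells of cluster 4 had 1620. In CLP plus stimulation the 125 cells of cluster 6 had 2595 and the cells of cluster 4 had 1702, so the cluster that held most macrophage-like cells in CLP was the higher one in both libraries. Within cluster 6 every member was lower in CLP plus stimulation than in CLP. Within cluster 4 Hspa1a was about level and Hspb1 was higher in CLP plus stimulation (70.9 and 104 CPM), while the other members were lower. Clusters were drawn from the same genes and this is a description.

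Hsph1, the HSP110 that releases clients from HSP70, had the largest CLP over sham ratio of the 10 members in macrophage-like cells. Its levels there were 39.4, 23.4, 133 and 32.5, with a CLP over sham ratio of 2.51 (2.36 to 2.66) and a CLP plus stimulation over CLP ratio of -2.04 (-2.16 to -1.91). Only CLP stood apart. In endothelial-like cells the levels were low, 18.4, 10.8, 26.0 and 34.4, and both CLP libraries were above sham, by 1.27 (0.93 to 1.62) for CLP and 1.68 for CLP plus stimulation. In fibroblast-like cells they were 86.1, 57.3, 112 and 51.0, with a CLP over sham ratio of 0.97 and a CLP plus stimulation over CLP ratio of -1.14. Neutrophil-like cells had 0, 2, 29 and 46 counts in all, so the 0 in control allows up to 3 counts and no fold is given against it.

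Dnajb1, the J domain protein that feeds clients to HSP70, did not share the CLP pattern of its partner in the large classes. Its CLP over sham interval lay above 0 in 4 of 7 classes and below 0 in 1. Its levels in macrophage-like cells were 439, 323, 364 and 201, highest in control, and the CLP over sham ratio was 0.17 (0.12 to 0.23). Fibroblast-like cells were the richest of the 4 large classes, at 883, 755, 601 and 288, and stepped down along the 4 libraries. Their CLP over sham ratio was -0.33 (-0.37 to -0.29) and their CLP plus stimulation over CLP ratio -1.06, which was -0.86 with scaling by trimmed means. Thinned fibroblast-like cells had a Dnajb1 UMI in 56.2%, 51.0%, 45.6% and 31.4% of cells. Endothelial-like cells had 258, 131, 175 and 178, with control the highest and a sham over control ratio of -0.98. T or NK cell-like cells went the other way in CLP plus stimulation, at 353, 202 and 648 in control, sham and CLP plus stimulation, a ratio over sham of 1.68 (1.45 to 1.91). Cardiomyocyte-like cells had 107, 26.6, 89.2 and 54.1 CPM from only 35, 6, 23 and 4 counts, with sham the lowest, a CLP over sham ratio of 1.66 (0.41 to 3.33) and a sham over control ratio of -1.92 (-3.55 to -0.75).

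Hsp90aa1 encodes the inducible cytosolic HSP90. It stood at 1739, 1398, 2459 and 1112 in macrophage-like cells, where CLP was highest and CLP plus stimulation lowest. The ratios were 0.81 (0.79 to 0.84) for CLP over sham and -1.14 (-1.17 to -1.12) for CLP plus stimulation over CLP. In endothelial-like cells the levels were 591, 369, 944 and 1039.6, and here both CLP libraries were high, with 1.36 (1.30 to 1.41) for CLP over sham and 0.14 (0.08 to 0.20) for CLP plus stimulation over CLP. Fibroblast-like cells had 1253, 1064, 1734 and 1396 and smooth muscle-like cells 1307, 943 and 1869 in control, sham and CLP, with CLP highest in each. Cardiomyocyte-like cells were the lowest class for Hsp90aa1 in all 4 libraries, at 229.6, 244, 299 and 311, and their intervals overlapped with each other and, in CLP plus stimulation, with that of neutrophil-like cells.

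Hspa8 encodes HSC70, the HSP70 that cells make without stress and that also strips clathrin coats from vesicles. In CLP its levels varied less between classes than those of the inducible pair. Neutrophil-like cells were lowest there for both, and the highest class was 4.40 times the lowest for Hspa8 and 8.25 times for Hspa1a. In macrophage-like cells Hspa8 stood at 1928, 1669, 3573 and 2586, so CLP plus stimulation was below CLP but above sham. The ratios were 1.10 (1.08 to 1.12) for CLP over sham, -0.47 (-0.48 to -0.45) for CLP plus stimulation over CLP and 0.63 (0.61 to 0.65) for CLP plus stimulation over sham. Endothelial-like cells had 1279.7, 1069, 2012 and 1999.8, nearly equal in the CLP libraries, with 0.91 for CLP over sham and -0.01 between them. Fibroblast-like cells had 1912, 1816, 2118 and 2107, with 0.22 and -0.01. Cardiomyocyte-like Hspa8, at 1199.9, 1120.4, 1214 and 1244, showed no difference outside the counting intervals. CLP plus stimulation was above sham for Hspa8 in all 8 classes compared, with the interval above 0 in 7, the exception being cardiomyocyte-like cells at 0.16 (-0.21 to 0.50).

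Hspd1 and Hspe1 encode HSP60 and its lid HSP10, which fold proteins inside mitochondria and share the start region printed above. In macrophage-like cells Hspd1 stood at 104, 89.97, 226 and 118, and Hspe1 at 180.3, 206, 466 and 157, both highest in CLP. The CLP over sham ratios were 1.33 (1.25 to 1.42) and 1.18 (1.12 to 1.24). In endothelial-like cells both were lower in CLP than in sham, Hspd1 at 88.3, 86.7, 70.8 and 121 with a ratio of -0.29 (-0.44 to -0.15) and Hspe1 at 141, 164, 114 and 119 with -0.52 (-0.63 to -0.41). The partners parted in CLP plus stimulation. Fibroblast-like Hspd1 was 148, 119, 157 and 279, with a CLP plus stimulation over CLP ratio of 0.83 (0.76 to 0.91), while Hspe1 was 236, 247, 262 and 223, with -0.23 (-0.30 to -0.16). Hspd1 was above sham in CLP plus stimulation in 8 of 8 classes and Hspe1 in 2 of 8. Cardiomyocyte-like cells, which are rich in mitochondria, had 474, 469, 345 and 243 of Hspe1, and their intervals overlapped with those of T or NK cell-like cells at the top of the order in control and sham.

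Hspb1 encodes the small heat shock protein HSP25, which holds unfolded protein and binds the actin skeleton. Smooth muscle-like cells had by far the most in the 3 libraries where they were counted, 3059, 2277 and 4469 in control, sham and CLP, with a CLP over sham ratio of 0.97 (0.90 to 1.05). Endothelial-like cells had 1079.6, 929.7, 1853 and 1341 and fibroblast-like cells 965, 779, 982 and 1118. CLP was the highest library in the first and CLP plus stimulation in the second. The ratio of CLP over sham was 0.99 and 0.33 in these 2 classes. Pericyte-like cells had 926, 706, 1179 and 1534, with CLP plus stimulation over sham at 1.12 (0.83 to 1.41). Cardiomyocyte-like Hspb1 went the other way, at 1065, 722, 489 and 568, with control highest and a CLP over sham ratio of -0.56 (-0.91 to -0.22). Macrophage-like cells were low throughout, 88.8, 68.6, 230.1 and 107, yet their ratio of 1.75 (1.65 to 1.84) was the largest of any class for Hspb1. After thinning, 8.27%, 6.72%, 15.9% and 11.5% of them had an Hspb1 UMI. T or NK cell-like cells, which with neutrophil-like cells were the lowest in Hspb1 in control and sham, had 18.0, 16.6 and 26.5 CPM in control, sham and CLP plus stimulation, under the macrophage-like level of each of those libraries.

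Bag3 encodes an exchange factor that joins HSP70 to small heat shock proteins and sends clients to autophagy. It was highest in fibroblast-like cells, at 295, 299.8, 346 and 248, apart from 408 in the control library's endocardial-like cells from 60 counts. The fibroblast-like libraries lay within a narrow band, with 0.21 (0.15 to 0.26) for CLP over sham and -0.48 (-0.55 to -0.41) for CLP plus stimulation over CLP. Macrophage-like cells had 51.6, 45.1, 89.7 and 48.9, with 0.99 (0.87 to 1.12) and -0.87 (-0.99 to -0.76), just short of 2-fold each. Endothelial-like cells had 68.4, 59.4, 89.2 and 92.6. The levels of 6 of these members over all classes are plotted together.

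**Figure D4:**
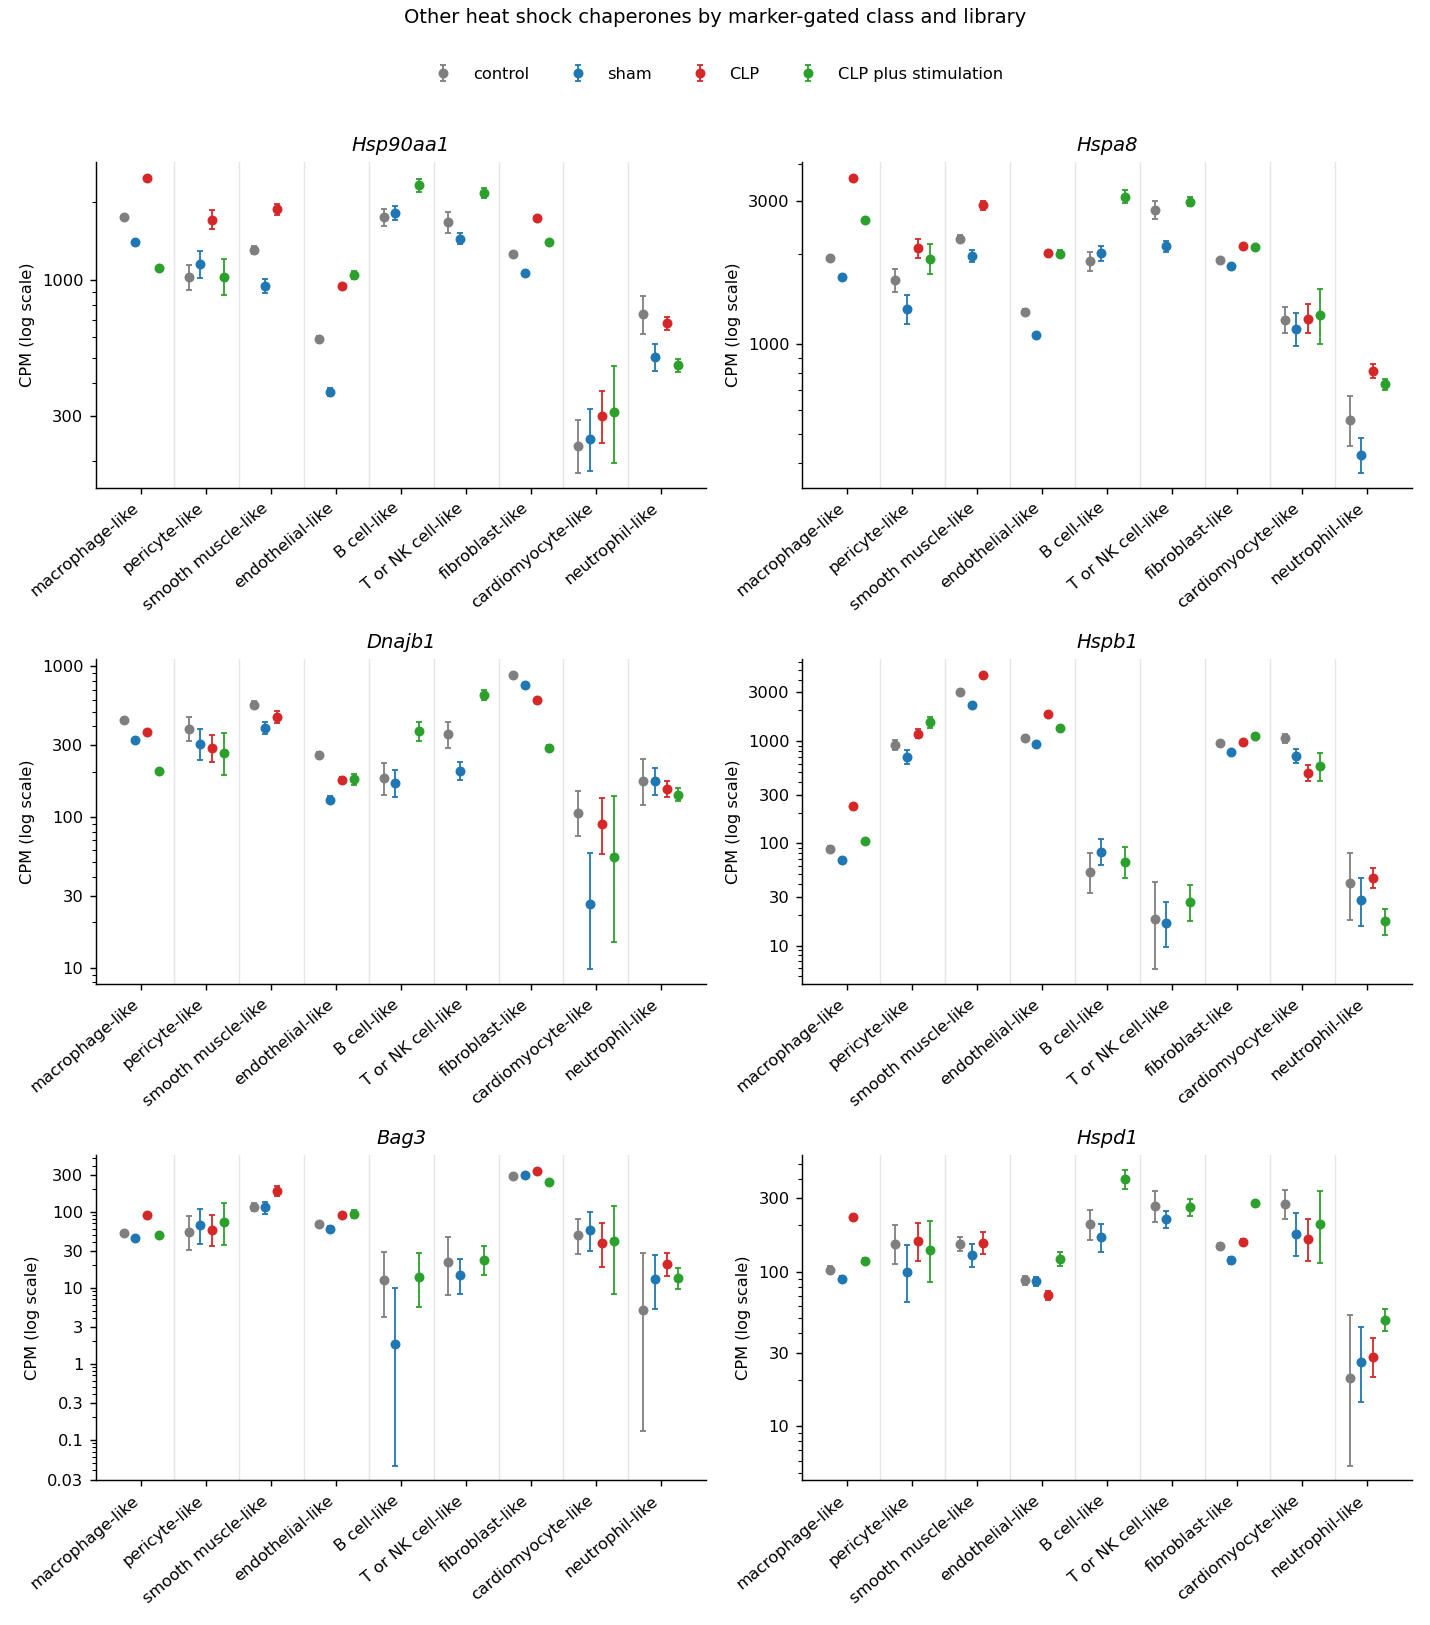
Hsp90aa1, Hspa8, Dnajb1, Hspb1, Bag3 and Hspd1 in CPM (log scale, a different range in each panel) by cell class and library, with exact 95% Poisson intervals. Hspa8 spans a narrow range over classes, Hspb1 separates vessel wall, endothelial-like and fibroblast-like cells from immune classes, and Dnajb1 in fibroblast-like cells steps down from control to CLP plus stimulation.

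Summed over the 10 members, chaperone RNA made up 0.731%, 0.600%, 1.54% and 0.650% of all UMIs of macrophage-like cells. The CLP library was the only one above 1%. The HSP70 pair was 37.5%, 36.3%, 51.0% and 32.9% of that sum. In endothelial-like cells the sum was 0.434%, 0.334%, 0.808% and 0.620%, in fibroblast-like cells 0.620%, 0.554%, 0.765% and 0.631%, and in pericyte-like cells 0.850%, 0.738%, 1.20% and 0.842%. Macrophage-like cells held 62.1%, 70.4%, 54.5% and 70.5% of all Hspa1a UMIs of their library while being 30.1%, 38.1%, 22.6% and 39.1% of its cells. Their share was thus lowest in CLP, where their level was highest. Fibroblast-like cells held 49.8%, 50.8%, 52.0% and 26.3% of Dnajb1 UMIs. Smooth muscle-like cells, 3.01%, 1.52%, 1.81% and 0.548% of cells, held 18.8%, 9.63%, 8.04% and 14.6% of Hspb1 UMIs. The last share came from only 44 cells, under the 50 required for a level.

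Other genes of the folding system were read from lists of relatives and partners. In macrophage-like cells, where the median of all genes was -0.24 for CLP over sham and 5.27% of genes were at least 2-fold higher and 17.5% lower, the HSP70 and HSP110 family had 2 of 10 measured genes at least 2-fold higher and 0 lower, with a median of 0.48. The 2 were Hyou1, an exchange factor of the endoplasmic reticulum (15.5 and 36.2 CPM in sham and CLP, 1.22), and Hspa1l, a neighbour and close relative of the inducible pair whose reads may be split with theirs (1.04). Among HSP90 and its co-chaperones 0 of 13 passed 2-fold (median 0.31), with Stip1, which couples HSP70 to HSP90, at 0.94 and Chordc1 at 0.84. Of 16 J domain genes 1 was at least 2-fold higher and 1 lower (median 0.12), Dnaja1 (435 and 892, 1.04) and Dnajb14 (51.8 and 19.3, -1.42), which is near the background for higher genes and below it for lower ones. All 8 genes of TRiC, the chaperonin of the cytosol that folds actin and tubulin, were higher in CLP but 0 reached 2-fold (median 0.71). Of the small heat shock proteins 1 of 5, Hspb8, was at least 2-fold higher (1.17, median of the 5 -0.04). Of the other exchange factors 0 of 8 passed 2-fold (0.07), of mitochondrial chaperones and proteases 0 of 10 (0.32), of the heat shock factors 0 of 3 (0.40) and of the polyubiquitin and autophagy receptor genes 0 of 3 (0.06). Hsf1, the factor itself, stood at 14.2, 17.0 and 13.5 in sham, CLP and CLP plus stimulation.

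CLP plus stimulation over CLP gave the HSP90 list a median of -0.76 in macrophage-like cells against 0.03 for all genes, with 2 of 13 at least 2-fold lower, Fkbp4 (-1.12) and Hsp90ab1 (-1.01), where 8.78% of all genes were that much lower. All 8 TRiC genes were lower (median -0.57), with 0 past 2-fold, and 3 of 10 in the HSP70 and HSP110 family were at least 2-fold lower (median -0.43), Hspa12b (-2.45), Hspa1l (-2.21) and Hyou1 (-1.16). In endothelial-like cells TRiC lay on the other side, with 7 of 8 higher, 2 of them at least 2-fold (Cct6a at 1.22 and Cct3 at 1.05, where 9.39% of all genes were), and a median of 0.81 against -0.14. There Hspa9, the mitochondrial HSP70, stood at 66.2, 40.1 and 139 in sham, CLP and CLP plus stimulation, a ratio of 1.80 (1.60 to 1.99) between the CLP libraries. In fibroblast-like cells 8 of 8 TRiC genes were higher in CLP than in sham (median 0.31 against -0.09), and Hspb8, a small heat shock protein that works with Bag3, stood at 50.1, 126 and 101, 1.33 (1.20 to 1.45) for CLP over sham. The medians of the lists are plotted against the median of all genes.

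**Figure D5:**
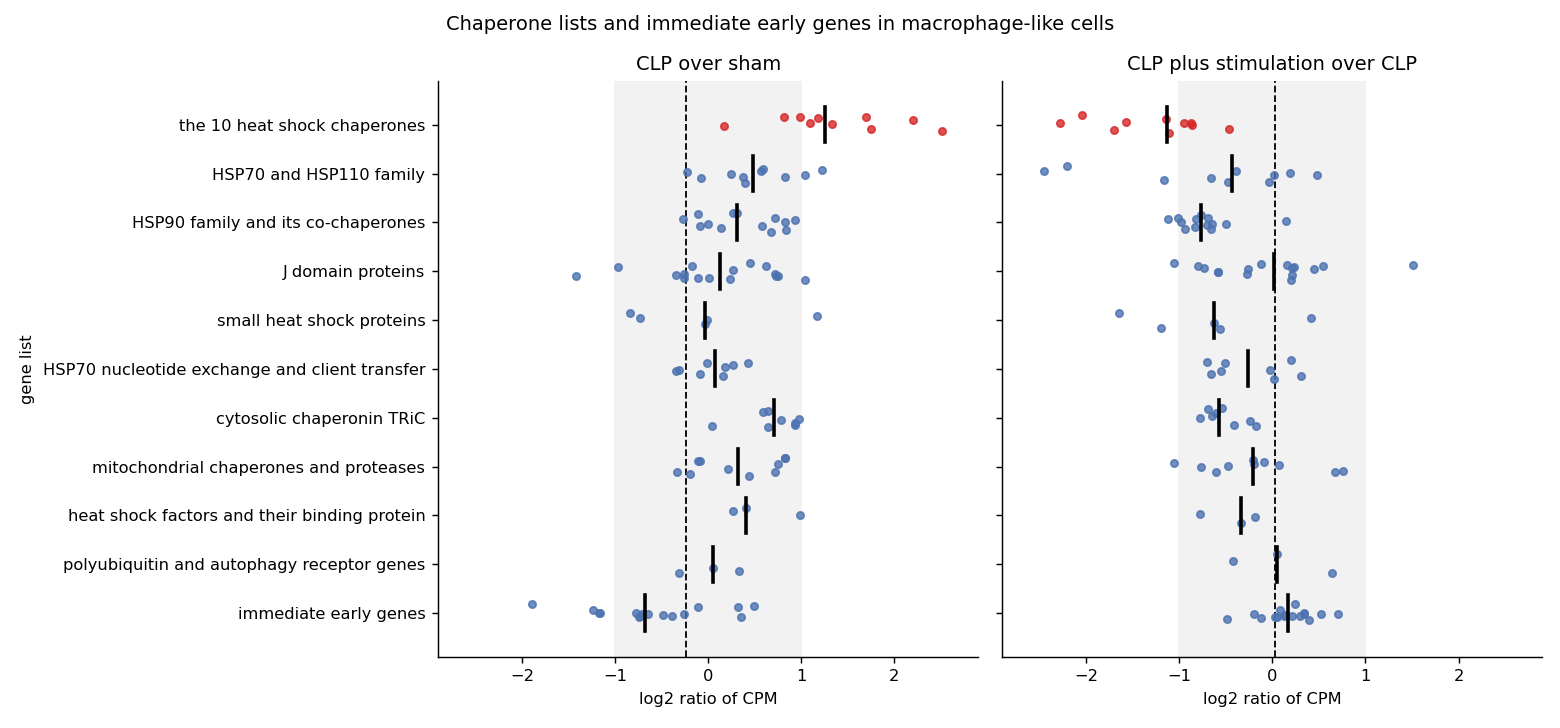
Log2 ratios of CPM in macrophage-like cells for the 10 chaperones (red) and for genes of 10 related lists (blue), with 1 point per gene, a black bar at each list's median, a dashed line at the median of all genes and grey shading for less than 2-fold. On the left the chaperones have a median of 1.26, TRiC 0.71 and immediate early genes -0.67, and on the right the medians are -1.13, -0.57 and 0.17.

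Over the 38 combinations of class and library with at least 50 cells, the members did not follow a single pattern. Hspa1a went with Hspa1b at a Pearson r of 0.95 on log2(CPM + 5), Hspd1 with Hspe1 at 0.87, Hsph1 with Hspa8 at 0.83 and Hspb1 with Bag3 at 0.75, while Hspa1a and Dnajb1 had 0.39. Among 7911 genes the 5 most like Hspa1a were Hspa1b, Rhob (0.72), Arc (0.72), Tesk1 (0.71) and Bcl2l1 (0.69), so the sister gene stood well ahead of the next. Those most like Hsp90aa1 were Tra2b (0.88), Nasp (0.85), Dnaja1 (0.84), Rbm25 (0.82) and Tob2 (0.81). Hspd1 was most like Tcp1, a TRiC subunit (0.90), Eif3i (0.88), Hspe1 (0.87), Rps2 (0.87) and Rsl1d1 (0.87). Hspb1 was most like Rbfox2 (0.94), Fermt2 (0.92), Epn2 (0.92), Arhgef12 (0.92) and Yap1 (0.91), with correlations higher than with any other member. These points share 4 libraries and their depths, and the values are a description with no test.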

How the data were processed

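UMI counts per gene and cell barcode were deposited by the authors as 1 matrix per library, with Cell Ranger 5.0.0 as the maker per the file headers, while STAR and mm10 are named in the submitters' processing notes. The counts are not normalized. From them, barcodes with at least 500 UMIs, at least 200 genes and at most 20% mitochondrial UMIs were kept. Doublets were scored with Scrublet in scanpy 1.11.5, and the highest scores were left out at 0.8% per 1000 barcodes (2039, 728, 611 and 624 barcodes).

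Each cell was scored for each class as the mean over its markers of log counts per 10000, each divided by its 99.9th percentile. It took the top class if at least 3 of its markers were detected and the score was at least 1.5 times the next. This rule was settled after the data had been seen. UMIs were summed per class and library and divided by the class total. Levels carry exact Poisson intervals, ratios (prior count 0.5) exact conditional binomial intervals at 95%, and shares exact binomial intervals. Classes needed 50 cells and ratios 20 counts over both libraries. Thinning drew 1500 UMIs per cell.

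The members, lists and tests were chosen with earlier results of these data known. The genes named besides the members are those 2 highest or 2 lowest in a list and the 5 most alike in pattern. Fos, Maff, Ppp1r15a, Hsf1, Hyou1 in CLP plus stimulation, Hspa9 and Hspb8 in sham and C1q were named after their values were seen. Alternatives were trimmed-mean (TMM) scaling from edgeR 4.0.16 in R 4.3.3, thinned cells, 10% mitochondrial UMIs, no doublet removal, classes from leidenalg 0.10.2 clusters, 5 CPM added, no minimum count, a denominator without mitochondrial and ribosomal protein genes and, added after seeing the data, a score ratio of 2. The calculations used Python 3.11.15, numpy 2.4.6, scipy 1.17.1 and pandas 2.3.3 and were tested on simulated data. Gene coordinates are from GENCODE on GRCm38, the build named mm10.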

Additional observations from a re-analysis of the deposited data

How the results depend on the processing

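No paired analysis was possible because each group has 1 library, and leaving a library out leaves no comparison. Over 157 log2 ratios of members in the 4 large classes, 39 of them at least 2-fold, no ratio of 2-fold or more changed its sign under any alternative. Smaller ratios did change sign, 9 under TMM scaling, 11 with thinned cells (of 145) and 8 with classes from clusters. Called ratios that came under 2-fold numbered 3, 2 and 4 under these settings. The scaling moved the median of all genes from -0.24 to -0.02 in macrophage-like cells for CLP over sham, from -0.22 to -0.02 in fibroblast-like cells and from 0.33 to -0.03 in neutrophil-like cells for CLP plus stimulation over CLP, so ratios are best read against those medians.

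The counts of members in macrophage-like cells moved by less than 1.5 times under every alternative. For sham over control in endothelial-like cells, 0 members were at least 2-fold lower, but 1 with TMM, 2 with thinned cells and 1 with no doublet removal. In neutrophil-like cells that comparison gave 0 lower, but 1 at 10% mitochondrial UMIs, 1 with no doublet removal and 1 with classes from clusters, which also gave 1 higher in place of 0. CLP over sham gave 3 neutrophil-like members higher, but 5 at a score ratio of 2, a setting chosen after seeing the data. CLP plus stimulation over CLP gave 2 endothelial-like members lower, but 1 with TMM, 1 with thinned cells, 1 at 10% mitochondrial UMIs and 1 with classes from clusters. In fibroblast-like cells TMM gave 1 higher and 1 lower in place of 0 and 3. In neutrophil-like cells 1 was higher in place of 0 with thinned cells and at a score ratio of 2. CLP plus stimulation over sham gave 3 neutrophil-like members higher and 0 lower, but 0 higher and 1 lower with classes from clusters and 1 lower with TMM. The cause of these shifts was not tested. Depth limits mostly the neutrophil-like and cardiomyocyte-like values, where several members had fewer than 20 counts.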

Other observations

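Some classes reached 50 cells in 1 library only. In control, Hspa1a stood at 1503 CPM in endocardial-like cells, the lining of the heart chambers, 707 in erythroid-like cells, 526 in glial-like cells and 279 in lymphatic endothelial-like cells. The first of these lay below pericyte-like and macrophage-like cells and above every other class of that library. Monocyte-like cells reached 50 in CLP plus stimulation only (134 cells). Their Hspd1 level of 401 could not be told from that of B cell-like cells (399), and both lay above the other classes of that library. Their Hspa1a level, 127, was the lowest of that library, and their Hspb1 level was 9.07, with an interval that overlapped that of neutrophil-like cells. The monocyte-like cells could not be set against another library.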
